A study of Mus musculus with 8 samples.

Results

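The genes described here are 7 DNA damage repair genes of the mouse: Atm, Atr, Chek1, Chek2, Brca1, Brca2 and Parp1. Their probes were found by the gene name printed on the array, and the other probes within 0.5 Mb of each gene served as support. By that rule 6 of the 7 genes were found among 25612 gene names that could be placed. Atr has no probe of its own name. It was placed between its RefSeq neighbours, so it has values for its surroundings only.

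The study measured DNA copy number in livers of FEAT transgenic mice by array comparative genomic hybridisation, in which test DNA and reference DNA with different dyes compete for the same oligonucleotide probes. Hepatocellular carcinomas, the main cancer of liver cells, came from 6 male FEAT transgenic C57BL/6 mice, called tumours 1 to 6 here, aged 16, 21, 20, 18.5, 22 and 12 months. The non-tumour samples were 1 normal liver of a male FEAT transgenic C57BL/6 mouse aged 13 months and 1 normal liver of a male wild-type C57BL/6 mouse aged 6 months. Every array carried the same kind of reference, normal liver DNA of a male wild-type C57BL/6 mouse aged 6 months. All mice therefore share strain and sex, and the tumours and the FEAT normal liver share the transgene. The labels do not give the promoter that drives it. They record a lung metastasis for the mouse of tumour 4. The wild-type liver was the youngest sample and tumour 5 the oldest, and the part of age in any difference was not tested.

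When a DNA strand breaks or a replication fork stalls, the kinases ATM and ATR are activated and phosphorylate many substrates, among them the checkpoint kinases CHK2 and CHK1, which hold the cell cycle. BRCA1 and BRCA2 act in homologous recombination, which repairs a break from an intact copy of the sequence. PARP1 binds strand breaks and builds poly(ADP-ribose) chains that recruit repair factors. Altered dosage of such genes is of interest in liver cancer because chromosome gains and losses are frequent there.

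Copy levels are given as log2 of test DNA over reference DNA after each array's autosomal median was subtracted, so that 0 is the array's typical autosomal level and negative values mean less test DNA. The window mean of a gene is the mean over all probes from 0.5 Mb before to 0.5 Mb after it (96 to 173 probes), and its error is the standard error (SE) over those probes, which describes the array and not the spread between mice. A gene was called lost or gained where the segment holding it stood at or beyond 0.2 from 0. Each tumour is 1 array without a replicate, and DNA of a whole tissue piece cannot tell a change in all cells from a larger change in part of them.

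The arrays held 232626 probes, with 1319 to 3401 of them lacking a value on an array. Noise between neighbouring probes had an SD from 0.22 (tumour 5 and the wild-type liver) to 0.49 (tumour 4), so tumour 5 was measured with the least noise of the tumours and tumour 4 with the most. On every array brighter probes read lower. The correlation across autosomal probes between log2 brightness, taken from the wild-type array, and the log2 ratio ran from -0.26 in the wild-type liver to -0.78 in tumour 4. In tumour 4 the dimmest 20% of probes had a median of 0.60 and the brightest 20% a median of -0.51. Values after a correction for brightness, chosen after seeing the data, are given beside some of the results that rest on few probes or on a small difference between groups.

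All calls of these genes came from tumour 5. There Atm, Atr and Chek1, all on chromosome 9, lay in lost segments, and Parp1, on chromosome 1, lay in a gained one. Chek2 and Brca2 on chromosome 5 and Brca1 on chromosome 11 were called in no array. The called share in tumour 5 was 3 of 7 members lost against 13.6% of all genes lost, and 1 of 7 gained against 14.5% of all genes. In the other 5 tumours and both non-tumour livers 0 of 7 members were called in either direction. There the background was also lower. In tumour 1, 10.1% of all genes were lost and 4.01% gained, and in tumour 4, 1.02% were lost and 4.57% gained. In tumours 2, 3 and 6 the lost shares were 0.0312%, 0.0351% and 0.0508%, and the gained shares 0.0429%, 0.0195% and 0.0195%. The FEAT normal liver had 0.0547% lost and 0.0039% gained, and the wild-type liver 0.0156% lost and 0.0625% gained. In at least 1 tumour, 24% of all genes were lost and 17.8% gained. The 3 lost members are not separate events, because 99.4% of the chromosome 9 probes of tumour 5 lay in lost segments.

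**Figure D1:**
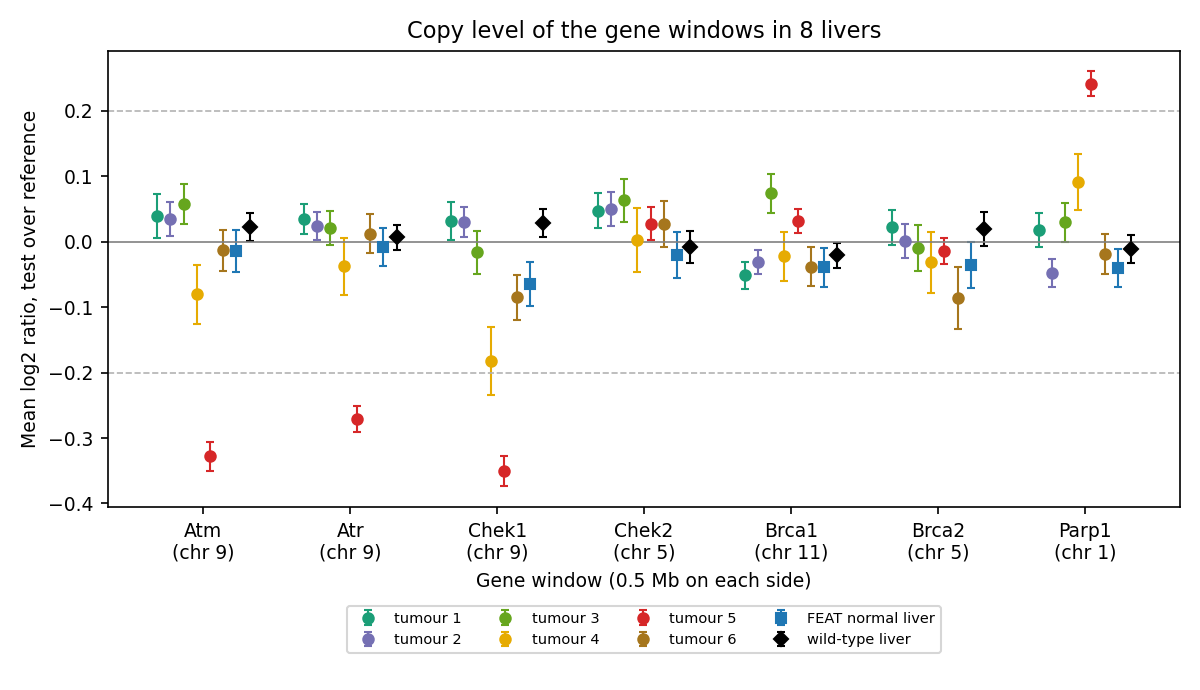
Window mean (log2 ratio of test over reference, y axis) of the 7 genes (x axis, with their chromosome) in each of the 8 arrays, with bars for the SE over probes and dashed lines at 0.2 and -0.2. Tumour 5 is the lowest point for Atm, Atr and Chek1, at -0.33, -0.27 and -0.35, and the highest for Parp1, at 0.24.

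Atm, the kinase that responds to double-strand breaks, has 12 probes of its own on chromosome 9 (chr9:53424115-53503088). Coordinates are those of the array file, for which no source used here names a genome build, and whether a probe lies in an exon or an intron was not determined. The window means were 0.04, 0.03, 0.06, -0.08, -0.33 and -0.01 in tumours 1 to 6, -0.01 in the FEAT normal liver and 0.02 in wild-type liver. Tumour 5 stood apart. In the other 5 tumours the level stayed within 0.1 of 0, with tumour 4 the lowest of them. In tumour 4, 82 of 120 window probes (68.3%) read below their non-tumour mean. Its window was -0.11 after a correction for GC content and -0.13 after the brightness correction. The SE in tumour 5 was 0.02, and 116 of 120 window probes (96.7%) read below their own mean in the 2 non-tumour livers. The segment holding Atm in tumour 5 stood at -0.30 over 4993 probes. If the typical autosomal level is taken as 2 copies, that is 1.63 copies averaged over the cells of the piece.

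Atm's own probes gave the same picture at the gene itself for tumour 5, but not for tumour 4. Their means were 0.00, 0.01, 0.05, 0.14, -0.40 and 0.03 in tumours 1 to 6, 0.02 in the FEAT normal liver and 0.06 in wild-type liver. Tumour 4 was the highest here (SE over probes 0.19), while its window stood at -0.08. In tumour 5 all 12 probes read below their own non-tumour mean, with differences from -0.98 to -0.15 and a mean difference of -0.44 (SE over probes 0.07). No other tumour had more than 8 of 12 on that side. After the brightness correction the own-probe mean of tumour 5 was -0.44 and that of the other tumours lay between -0.07 and -0.02. The 2 probes that bound the range in tumour 5 are shown, the probe with the deepest difference first and the one with the smallest second.
Atm probe at chr9:53443866-53443925: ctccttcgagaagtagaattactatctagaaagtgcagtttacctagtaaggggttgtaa
Atm probe at chr9:53452277-53452333: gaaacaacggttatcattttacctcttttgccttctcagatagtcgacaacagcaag
The first is a dim probe, with a green signal of 174 on the wild-type array, and the second the brightest of the 12, at 4172. The first also had the widest scatter among tumours, at 0.97 in tumour 2 and -0.92 in tumour 5, while the second read between -0.63 and -0.24 in every array, non-tumour livers included. Of the probes named by cDNAs, 2 that flank the Atm probes were not counted as its own. They read -0.42 and -0.89 in tumour 5, -0.51 and -0.54 in the FEAT normal liver, and -0.10 and 0.10 in wild-type liver. At the first of them tumour 5 lay between the non-tumour livers, and at the second it was the lowest of the 8 arrays, with tumour 6 next at -0.64.

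Atr, the kinase that responds to stalled replication forks, lies on the same chromosome between Pls1, named AI427122 on the array, and Xrn1 (chr9:95490317-95602306, a gap of 112 kb). The gap holds 13 probes, all named otherwise, so no probe is attributed to Atr. The window means were 0.03, 0.02, 0.02, -0.04, -0.27 and 0.01 in tumours 1 to 6, -0.01 in the FEAT normal liver and 0.01 in wild-type liver. Again tumour 5 was the 1 tumour apart, with an SE of 0.02. There 123 of 136 window probes (90.4%) read below their non-tumour mean, and the segment stood at -0.28 over 3682 probes, or 1.64 copies on the same assumption. In the gap itself the mean of tumour 5 was -0.20, with 10 of 13 probes below 0. The FEAT normal liver averaged -0.12 over those 13 probes, with 8 below 0, so that so few probes do not separate the arrays well.

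Chek1 encodes CHK1, the checkpoint kinase that ATR activates. Its 3 probes lie at chr9:36636658-36649089, 16.8 Mb from Atm and 58.8 Mb from Atr. All 3 are shown because Chek1 rests on so few.
Chek1 probe at chr9:36636658-36636717: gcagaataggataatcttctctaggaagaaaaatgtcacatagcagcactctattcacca
Chek1 probe at chr9:36639787-36639846: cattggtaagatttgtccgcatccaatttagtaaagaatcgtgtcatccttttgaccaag
Chek1 probe at chr9:36649030-36649089: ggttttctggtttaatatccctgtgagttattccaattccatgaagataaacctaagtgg
Its window means were 0.03, 0.03, -0.02, -0.18, -0.35 and -0.09 in tumours 1 to 6, -0.06 in the FEAT normal liver and 0.03 in wild-type liver. Tumour 5 was lowest, tumour 4 next, and the other 4 tumours lay within 0.03 of the range of the non-tumour livers. In tumour 5, 92 of 95 window probes (96.8%) read below their non-tumour mean. Only 0.0312% of all genes had a window at or below that of Chek1 in tumour 5, against 0.863% for Atm and 7.75% for Atr. Chek1 and Atm share the lost segment (chr9:22231055-70886487), and their windows differ by about their SEs of 0.02 each.

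The 3 probes of Chek1 averaged -0.12, -0.12, -0.04, -0.38, -0.45 and -0.09 in tumours 1 to 6, -0.16 in the FEAT normal liver and -0.07 in wild-type liver. All 8 means lie below 0, so the fair comparison is with the same probes in the non-tumour livers. Against these, 3 of 3 probes were lower in tumour 5 (mean difference -0.34, SE 0.14) and 3 of 3 in tumour 4 (-0.27, SE 0.07). In each of the other tumours the probes fell on both sides. After the brightness correction the own-probe means were -0.42 in tumour 5 and -0.22 in tumour 4, and between -0.09 and 0.03 elsewhere.

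In tumour 4 the measures of Chek1 did not lead to a call. Its window stood at -0.18 (SE 0.05), with 67 of 96 probes (69.8%) below their non-tumour mean, and 1.80% of all genes had a window at or below it. The segment holding Chek1 in tumour 4 stood at -0.05. With the brightness correction the window was -0.14 and the segment -0.13. The segments holding Atm and Atr in tumour 4 also stood at -0.13 with that correction. Without it the chromosome 9 probes of tumour 4 had a median of -0.13 and a mean of -0.09. With centring on the median the lower level was therefore not confined to Chek1. It depends on that centring, because the autosomal mode of tumour 4 lay at -0.082 and the median at 0.0019. Centring on the mode would raise all uncorrected levels of tumour 4 by about as much as the chromosome 9 mean lies below 0. A called loss of 608 probes lay 4.86 Mb from Chek1 (chr9:41506637-46890075, at -0.21). Atm lies 6.53 Mb beyond its other end, in a segment at -0.07 in tumour 4.

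**Figure D2:**
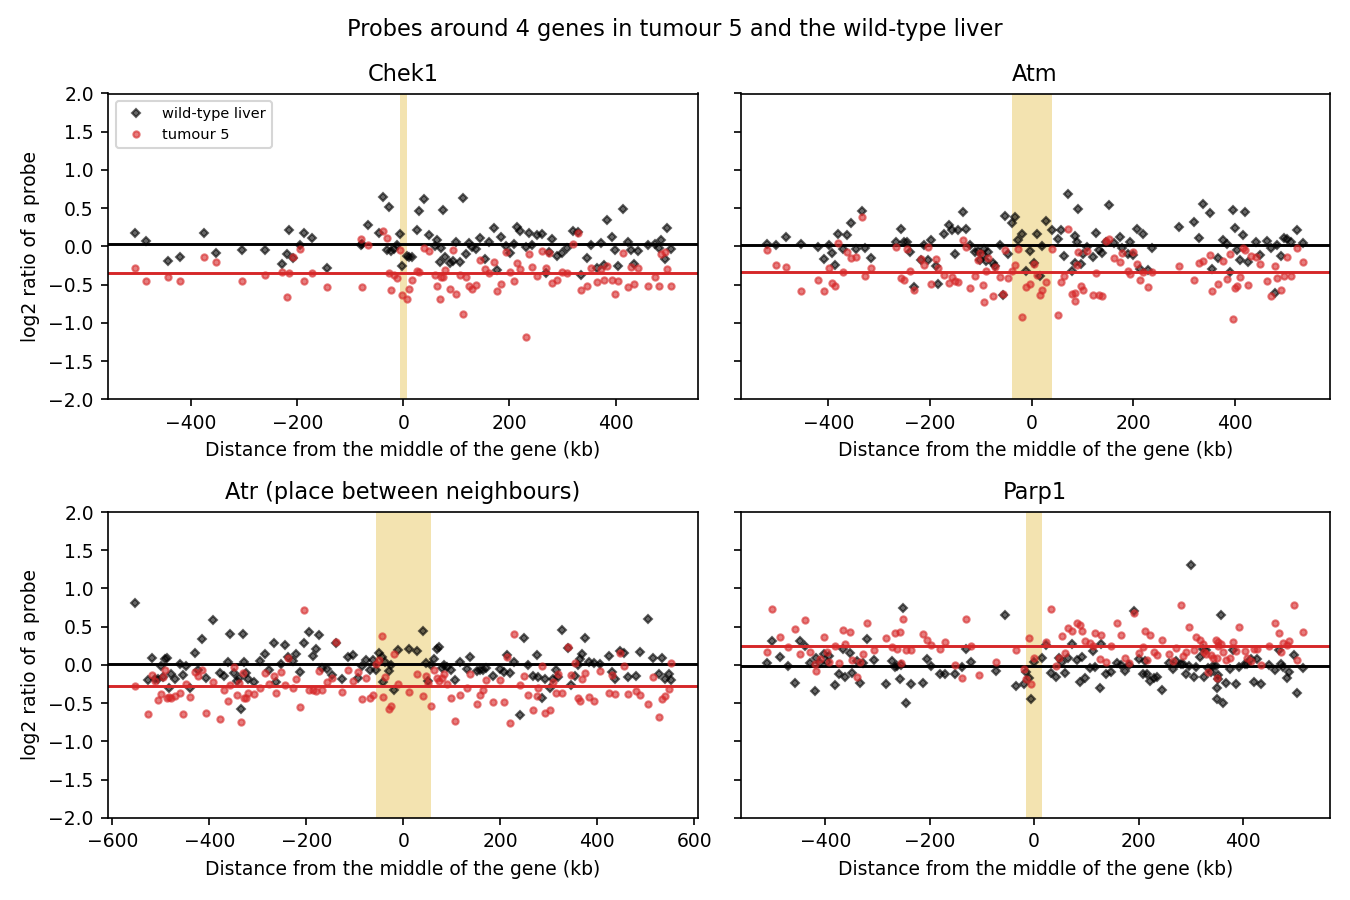
Log2 ratio of each probe (y axis) against its distance from the middle of the gene in kb (x axis) around Chek1, Atm, Atr and Parp1, in tumour 5 (red) and the wild-type liver (black), with lines at the window means and the gene's span shaded (for Atr, its place between neighbours). In tumour 5 the points lie lower on both sides of Chek1, Atm and Atr and higher on both sides of Parp1.

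Chek2 encodes CHK2, the kinase that ATM activates, and its 6 probes lie at chr5:110007730-110040105. The window means were 0.05, 0.05, 0.06, 0.00, 0.03 and 0.03 in tumours 1 to 6, -0.02 in the FEAT normal liver and -0.01 in wild-type liver. All 6 tumours stood above both non-tumour livers, the only member whose groups did not overlap on window means, where 4.93% of all genes showed the same order (the reverse order, seen in 0 members, held for 0.16%). The gap was small, with a mean difference of 0.05 and single SEs of 0.02 to 0.05. Its own probes did not share the order. They averaged 0.12, 0.12, 0.08, 0.05, 0.11 and 0.03 in tumours 1 to 6, 0.13 in the FEAT normal liver and 0.08 in wild-type liver, and 0 of 6 tumours lay above both. After the brightness correction tumour 4, at -0.06, fell below both non-tumour livers (-0.03 and -0.04), so the groups overlapped.

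Brca1 has 7 probes at chr11:101597823-101657802. Its window means were -0.05, -0.03, 0.07, -0.02, 0.03 and -0.04 in tumours 1 to 6, -0.04 in the FEAT normal liver and -0.02 in wild-type liver. The tumours lay on both sides of the non-tumour livers, 2 above both, 1 below both and 3 between. Its own probes averaged -0.06, 0.09, -0.08, -0.11, 0.07 and -0.10 in tumours 1 to 6, -0.09 in FEAT normal liver and 0.02 in wild-type liver. In tumour 2, 6 of 7 probes read above their non-tumour mean, by 0.13 on average (SE 0.05), which the window of -0.03 did not share. The nearest called segment on chromosome 11 in any tumour was a loss in tumour 4 that lay 31.0 Mb away.

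Brca2 has 6 probes at chr5:149469245-149500060, 39.4 Mb from Chek2. Its window means were 0.02, 0.00, -0.01, -0.03, -0.01 and -0.09 in tumours 1 to 6, -0.04 in the FEAT normal liver and 0.02 in wild-type liver. Tumour 6 was lowest and the only tumour below both non-tumour livers, by about its SE of 0.05. The own probes averaged -0.05, -0.01, -0.02, 0.03, -0.03 and -0.19 in tumours 1 to 6, -0.13 in FEAT normal liver and 0.28 in wild-type liver. The value of the wild-type liver rested largely on 1 probe, which is shown because it stood far above the others there. The median of the own probes in the wild-type liver was 0.12, and a comparison without that probe was not run.
Brca2 probe at chr5:149486115-149486174: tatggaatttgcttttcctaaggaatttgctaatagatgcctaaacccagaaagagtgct
That probe read 1.31 in the wild-type liver and between -0.19 and 0.21 in the other 7 arrays. No spot of the members' own probes carried a flag for dim, outlying or saturated signal on that array. On chromosome 5 no segment was called in any tumour.

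Parp1, the poly(ADP-ribose) polymerase, has 5 probes at chr1:180550814-180581277. Its window means were 0.02, -0.05, 0.03, 0.09, 0.24 and -0.02 in tumours 1 to 6, -0.04 in the FEAT normal liver and -0.01 in wild-type liver. Tumour 5 was highest, with an SE of 0.02, and tumour 4 followed with an SE of 0.04. In tumour 5, 116 of 126 window probes (92.1%) read above their non-tumour mean, and in tumour 4, 80 of 128 (62.5%). The segment of tumour 5 stood at 0.31 over 4562 probes, or 2.49 copies on the assumption above, and all of chromosome 1 was called gained there. In tumour 4 the segment stood at 0.15, below the calling level, while 47.9% of the probes of chromosome 1 lay in called gains that ended 30.2 Mb before the gene. Centring tumour 4 on the mode of its values instead of the median put the segment at 0.24, and Parp1 was then called gained in 2 tumours.

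The own probes of Parp1 did not show the gain clearly. Their means were -0.04, -0.29, -0.16, 0.06, 0.00 and -0.11 in tumours 1 to 6, -0.08 in the FEAT normal liver and -0.12 in wild-type liver. In tumour 5 only 4 of the 5 probes had a value, and 3 of 4 read above their non-tumour mean (mean difference 0.12, SE 0.08). In tumour 4, 3 of 5 did (0.16, SE 0.12). The own probes stood below the rest of the window in all 8 arrays, with differences from -0.26 (tumour 2) to -0.03 (tumour 4), of -0.25 in tumour 5, -0.05 in the FEAT normal liver and -0.11 in wild-type liver. After the brightness correction the own-probe mean of tumour 5 was -0.02, the highest of the 8 arrays. The probes with the highest and the lowest difference in tumour 5, at 0.32 and -0.06, were the following.
Parp1 probe at chr1:180556031-180556090: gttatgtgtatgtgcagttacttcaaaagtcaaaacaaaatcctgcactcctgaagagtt
Parp1 probe at chr1:180550814-180550873: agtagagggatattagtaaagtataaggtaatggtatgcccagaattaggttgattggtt
The call for Parp1 therefore rests on its surroundings, where 89.3% of all genes had a window at or below it in tumour 5.

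**Figure D3:**
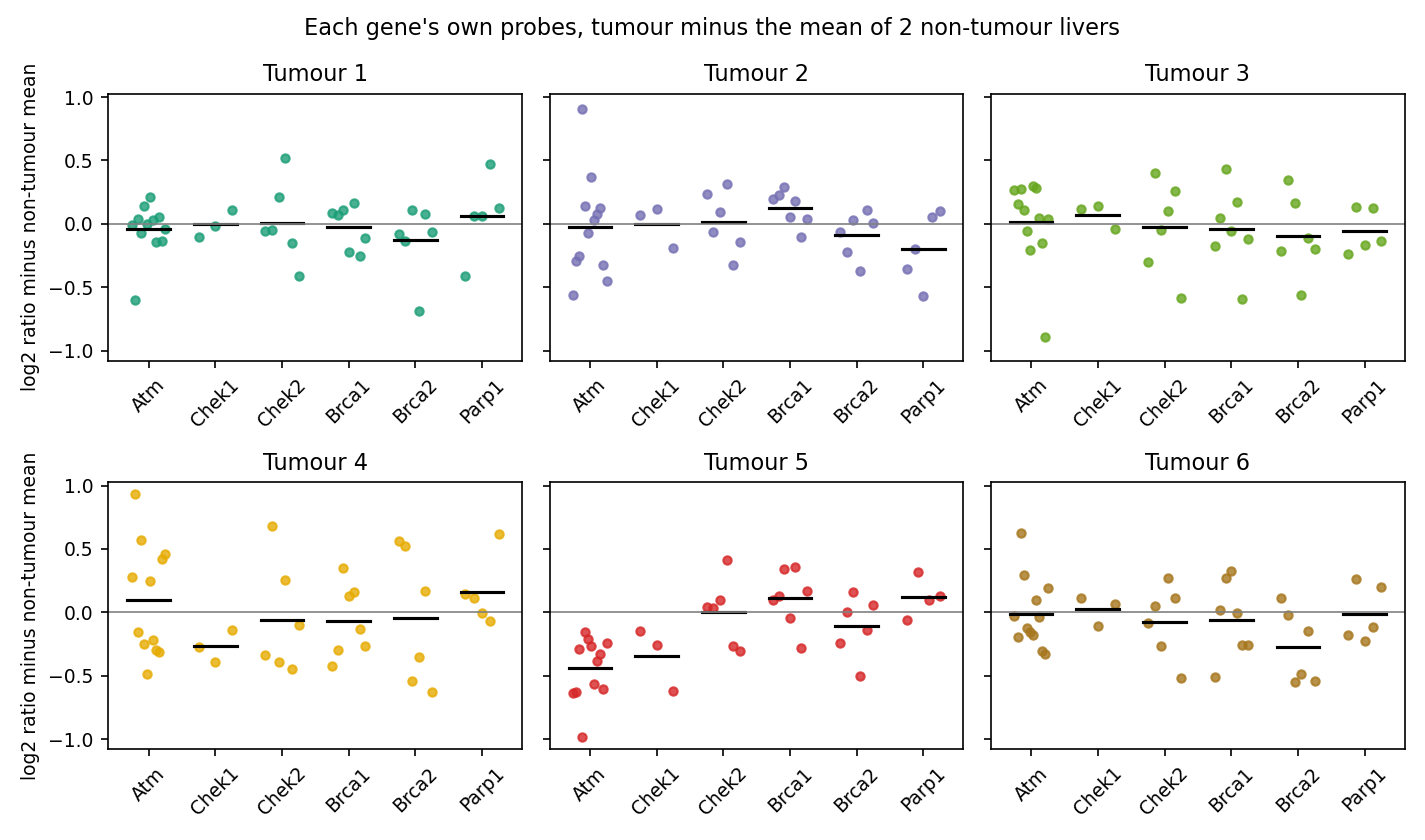
Difference of each own probe (points; log2 ratio in the tumour minus the mean of the same probe in the 2 non-tumour livers, y axis) for the 6 genes found by name (x axis), 1 panel per tumour, with a bar at the mean. In tumour 5 all 12 Atm probes and all 3 Chek1 probes lie below 0, and in tumour 4 the 3 Chek1 probes do.

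The 6 tumours were then compared with the 2 non-tumour livers as 1 group, by limma across all genes with Benjamini-Hochberg adjustment. On window means, 0 of 25602 genes passed an adjusted p of 0.05, and 33 (0.129%) had an unadjusted p under 0.05, none of them a member. The difference was -0.08 (SE 0.09) for Chek1, -0.05 (SE 0.09) for Atm, -0.04 (SE 0.08) for Atr, 0.05 (SE 0.04) for Chek2, 0.02 (SE 0.04) for Brca1, -0.01 (SE 0.04) for Brca2 and 0.08 (SE 0.07) for Parp1. The limma adjusted p was 0.998 for each. The median difference of the 7 members was -0.01, with 3 above 0 and 4 below, against 0.01 over all genes, with 15012 above 0 and 10590 below. Without tumour 5 the difference was 0.00 for Atm, 0.01 for Atr, -0.03 for Chek1 and 0.04 for Parp1. Without tumour 3 it was 0.01 for Brca1, and without tumour 6 it was 0.00 for Brca2. The difference of Chek2 was 0.03 after the brightness correction and 0.06 after the correction for GC content. With only 2 non-tumour arrays, from 2 genotypes, this test asks for a shift shared by the tumours and not for a loss in 1 of them, and it measures the spread between these samples only.

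A second fit asked whether a gene's own probes departed from the rest of its window. By limma 0 of 16888 genes passed an adjusted p of 0.05, and 521 (3.09%) had an unadjusted p under 0.05, with no member among them. The difference between tumours and non-tumour livers in own probes minus surroundings was -0.02 (SE 0.08) for Atm, -0.01 (SE 0.07) for Chek1, -0.07 (SE 0.05) for Chek2, -0.02 (SE 0.08) for Brca1, -0.12 (SE 0.09) for Brca2 and -0.07 (SE 0.08) for Parp1. The limma adjusted p was 1.00 for each. Chek2 was the only member whose groups did not overlap on this measure. Its own probes stood above their surroundings by 0.07, 0.08, 0.02, 0.05, 0.08 and 0.01 in tumours 1 to 6, by 0.16 in the FEAT normal liver and by 0.10 in wild-type liver. All 6 tumours lay below both non-tumour livers, an order that 2.4% of all genes tested showed (the reverse order, seen in 0 members, held for 2.62%). With medians in place of means the difference of Chek2 was -0.15. After the brightness correction that of Atm was -0.07. Single tumours set the sign of 3 small differences: the value was 0.00 for Atm without tumour 5, 0.01 for Brca1 without tumour 3 and 0.01 for Chek1 without tumour 4. For Chek1 it was also above 0, at 0.0017 and 0.00093, without tumour 1 and without tumour 2. A change confined to one of these genes was not detected with 3 to 12 probes each.

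For each member the gene on another chromosome with the most similar window means over the 8 arrays was found, as a description. It was Slc22a18 on chromosome 7 for Atm (Pearson r = 0.997), AK015915 on chromosome 7 for Atr (r = 0.996) and Ins2 on chromosome 7 for Chek1 (r = 0.992). For Parp1 it was Pdzd8 on chromosome 19 (r = 0.995). These genes were picked for their similar values in the same 8 arrays, so an extreme value in tumour 5 follows from the choice. There Slc22a18 stood at -0.30, AK015915 at -0.26, Ins2 at -0.25 and Pdzd8 at 0.19. For the members without a call it was Abo on chromosome 2 for Chek2 (r = 0.907), AK147241 on chromosome 5 for Brca1 (r = 0.971) and D8Ertd82e on chromosome 8 for Brca2 (r = 0.984). Among other repair genes, given for 6 of the members, the closest were Msh3 for Atm and Chek1 (r = 0.981 and 0.958), Lig1 for Atr (r = 0.970), Fanca for Brca1 (r = 0.900), Polb for Brca2 (r = 0.744) and Polm for Chek2 (r = 0.684). A high r does not mean a change of the same size. In tumour 5 Msh3 stood at -0.12 and was not called lost, while Lig1 stood at -0.25 and was.

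Beside the members, 88 of 96 other repair genes on a list made for this description had probes. In at least 1 tumour 28 of them (31.8%) were lost and 10 (11.4%) gained, against 24% and 17.8% of all genes. Tumour 5 held 18 of the losses (20.5% of the list) and 7 gains (7.95%), against 13.6% and 14.5% of all genes. Tumour 1 held 10 losses (11.4%) and 2 gains (2.27%), against 10.1% and 4.01%. Tumour 4 held 1 loss (1.14%) and 6 gains (6.82%), against 1.02% and 4.57%. Tumours 2, 3 and 6 held none. By limma 0 of the 88 passed, also at an unadjusted p of 0.05, and the median difference between tumours and non-tumour livers was 0.00, with 44 genes above 0 and 44 below.

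**Figure D4:**
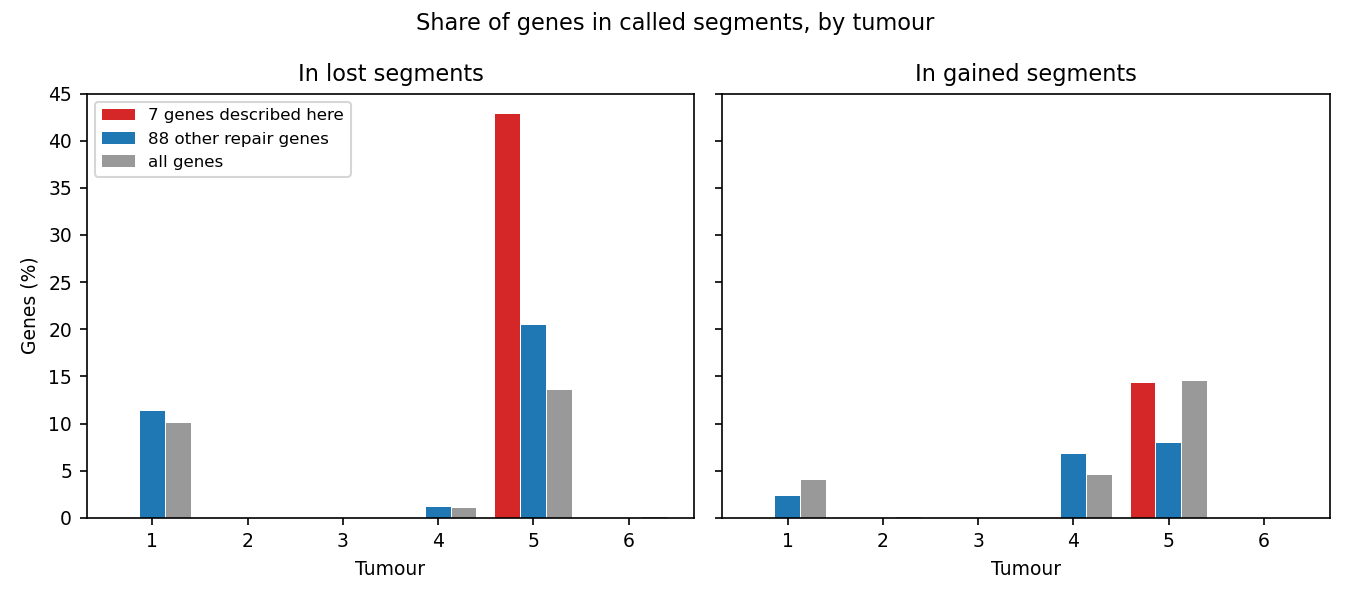
Share of genes in lost segments (left) and gained segments (right), in percent (y axis), for each tumour (x axis), among the 7 genes described here, 88 other repair genes and all genes. In tumour 5 the lost share was 42.9% of the 7 genes, 20.5% of the other repair genes and 13.6% of all genes.

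By role, tumour 5 lost 8 of 24 checkpoint signalling genes (33.3%), 5 of 18 genes of base excision and single-strand break repair, 3 of 11 of nucleotide excision and direct reversal, 1 of 19 of homologous recombination, 1 of 6 of mismatch repair and 0 of 10 of end joining, where 13.6% of all genes were lost. Its gains were 2 of 10 end joining genes, 2 of 19 of homologous recombination and 1 gene in each of checkpoint signalling, mismatch repair, and nucleotide excision and direct reversal, where 14.5% of all genes were gained. Tumour 1 lost 4 of 18 genes of base excision and single-strand break repair, 3 of 19 of homologous recombination and 2 of 24 of checkpoint signalling. It also lost 1 of 11 of nucleotide excision and direct reversal, 0 of 10 of end joining and 0 of 6 of mismatch repair, where 10.1% of all genes were lost. The 4 base excision genes all lie on chromosome 14, in segments at -0.22 to -0.24, and cannot be counted as separate losses. The checkpoint genes lost with Atm, Atr and Chek1 on chromosome 9 were Mre11a, a nuclease that feeds the ATM response, Atrip, the partner of ATR, Topbp1, its activator, Tipin, a fork protection factor, H2afx, the histone variant phosphorylated at breaks, Cdc25a, a phosphatase that CHK1 restrains, and Usp28, a deubiquitinase. They lie on a chromosome that was lost almost whole and are not separate losses. Close to the members, Neil1, a glycosylase of base excision repair 3.71 Mb from Atm, and Usp28, at 4.48 Mb, were lost in tumour 5 with Atm. Exo1, an exonuclease 4.70 Mb from Parp1, was gained with it, and Ung, the uracil glycosylase 3.33 Mb from Chek2, was called in no array.

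The listed repair genes called in more than 1 tumour are given next. The share of all genes called in more than 1 tumour was not determined. H2afx was lost in tumours 4 and 5, with segments at -0.21 and -0.30. Rad1, part of the clamp loaded at damage, was gained in tumours 1 and 5, at 0.29 and 0.28. Bard1, the partner of BRCA1, Xrcc5, the Ku80 subunit, Pms1 of mismatch repair and Ercc5, an endonuclease of nucleotide excision repair, all on chromosome 1, were gained in tumours 4 and 5, at 0.21 in tumour 4 and 0.30 to 0.33 in tumour 5. In tumour 4 they lay in 1 segment (chr1:3009539-73205881), and in tumour 5 all of chromosome 1 was called gained, so they are not separate gains. After a GC correction H2afx and these 4 genes were called in 1 tumour each, while Rad1 kept both calls. Xrcc6, the Ku70 subunit on chromosome 15, was called gained in tumour 1, at 0.26, and stood just short of the call in tumour 5, at 0.197. After the GC correction it was called in 2 tumours. Timeless, a fork protection factor, lay in a segment at 0.46 in the wild-type liver, where its window mean was 0.01.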

How the data were processed

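Copy number was measured on 2-colour Agilent 244A arrays; the labels give Cy3 for test DNA and Cy5 for the reference. The series' design text names CGH analytics 3.4. Scanner output was used for the wild-type array, made by Feature Extraction 9.1.3.1 under protocol CGH-v4_91, which detrends spatially and normalises the dyes linearly, per the file headers. The deposited log2 values of the 8 arrays, made by the authors, equalled on the wild-type array the scanner's deposited log10 ratio of red over green after a change of sign and base, plus 0.0014 (r = -1). For the other 7 arrays only the labelled dyes give the direction; the 28 correlations between arrays ran from 0.262 to 0.758. The deposited scanner intensity values gave probe brightness, and its spot flags the filter on poor spots. On that array 99.6% of green and 99.9% of red spots were well above background. No source used here names the genome build. RefSeq names and neighbours come from GRCm38.p6.

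Values were centred per array on the autosomal median, with no loess or quantile normalisation. Of 25705 gene names, 87 on several chromosomes and 6 spanning too far were left out. Segments came from penalised least squares (penalty factor 2, at least 5 probes, values drawn in at 3 noise SDs of a 5-probe running median), checked on simulated data. Window means needed 20 probes and own-probe means 2. Tests used limma 3.58.1 in R 4.3.3; Python 3.11.15 did the rest. The number of arrays limits the precision.

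The 7 members, the list of repair genes and the rules were chosen with earlier results of these data known. Named genes were the members, listed repair genes called in at least 2 tumours or in a non-tumour liver, those within 5 Mb of a member, and the most similar gene on another chromosome. The chromosome 9 checkpoint genes were also named, after their values were seen. Alternatives covered centring, window size, summary, poor spots, GC content (500 kb), controls, threshold, penalty and each tumour left out. A correction for brightness in 50 classes was added after seeing the data. The most similar repair gene of Parp1 is not reported here.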

Additional observations from a re-analysis of the deposited data

Results flagged for a closer look

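Among 19 groups of 6 tumour values examined, 4 held a sample far from the other 5 by Dixon's criterion, where chance gives 0.95 on average. The groups hold several measures of the same genes and are not independent, so no excess over chance can be read from the count. Tumour 5 stood apart in the window mean of Atm, at -0.33 against a median of 0.01 over the tumours. It also stood apart in the own probes of Atm, at -0.40 against a median of 0.02. The window of Atr was the third such case, at -0.27 against a median of 0.02. These 3 share the lost chromosome 9 of tumour 5. The fourth was tumour 6 in the own probes of Brca2, at -0.19 against a median of -0.03. The 2 brightest Brca2 probes read -0.97 and -0.91 in tumour 6. On the array of tumour 6 the correlation between brightness and log2 ratio was -0.71, and after the brightness correction its own-probe mean was -0.14. The part of brightness in this value was not tested.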

How the results depend on the processing

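The limma count of genes past an adjusted p of 0.05 was 0 in both comparisons under every alternative run (also without each tumour), with 1 to 155 genes at an unadjusted p under 0.05 for windows and 463 to 733 for own probes. The 3 lost calls became 0 at a threshold of 0.3 and ranged from 0 to 3 with each tumour left out, 0 without tumour 5. The 1 gained call became 2 at a threshold of 0.1 and with centring on the mode (Parp1 in tumour 4 added), and ranged from 0 to 1 with each tumour left out, 0 without tumour 5. Other penalties, GC and brightness corrections and window means kept both counts. Small differences changed sign. The window difference ranged, with each tumour left out, from -0.073 to 0.0037 for Atm, from -0.050 to 0.011 for Atr and from -0.020 to 0.0018 for Brca2. For Brca2 it was 0.0014 as deposited, 0.016 against the FEAT normal liver alone, 0.0022 with medians and 0.00083 with the mode. Own minus surroundings ranged, with each tumour left out, from -0.060 to 0.0045 for Atm, from -0.029 to 0.012 for Chek1 and from -0.046 to 0.011 for Brca1. With medians it was 0.13 for Brca1 and 0.0086 for Brca2, and with the brightness correction, chosen after seeing the data, 0.015 for Chek1. The cause was not tested. No paired analysis was possible because the labels match no non-tumour liver to a tumour and each non-tumour group holds 1 sample. The tumour numbers follow the order of the samples and mark no pairs.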
